A study of Mus musculus with 6 samples.

Results

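The matrix metalloproteinases (MMPs), the ADAMTS proteases (disintegrin-like metalloproteinases with thrombospondin motifs) and their tissue inhibitors (TIMPs) were examined in RNA-seq libraries of mouse bone and of osteoblasts grown from marrow. Members were taken by gene name, as every gene called *Mmp*, *Adamts* or *Timp* followed by its number, with *Mmp8*, *Mmp9*, *Adamts2*, *Adamts3* and *Adamts14* left out. This gave 37 of the 48733 named genes in the deposited tables, namely 18 MMPs, 15 ADAMTS genes and 4 TIMPs. RefSeq lists all 37 as protein-coding genes, and they lie on 17 chromosomes.

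MMPs are zinc proteases that are secreted or held at the cell surface and that cleave collagens and other proteins of the extracellular matrix. ADAMTS proteases are secreted, and their substrates include aggrecan, versican, von Willebrand factor and the proteins of microfibrils. TIMPs bind the active site of MMPs and block them, and *Timp3* also blocks aggrecan-cleaving ADAMTS proteases. The local balance of protease and inhibitor thereby limits how fast matrix is broken down. In bone, collagenases made by osteoblasts, osteocytes and the hypertrophic cells of cartilage take part in growth and remodelling, while macrophages and other marrow cells carry MMPs of their own.

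All libraries came from CC016/GeniUnc mice, an inbred Collaborative Cross strain, with 3 labelled bone and 3 labelled osteoblasts, and no further treatment or allele was given. Bone stands for femoral bone from which the marrow had been spun out, and osteoblasts for adherent marrow stromal cells that were passaged once and then held for 8 days in differentiation medium, which held ascorbic acid at 50 µg/ml, dexamethasone at 10 nM and beta-glycerophosphate at 10 mM. Sex, age and the mouse behind each library were not given in the labels. The paper's methods give 3 mice for the femora and then describe the isolation of marrow, so bone and osteoblasts may share mice. The main comparison below does not pair libraries, since no label links them. Libraries are named below by label and replicate number, so that p-values measure the spread between these 3 libraries per label, whatever its source.

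The expression of *Hbb-bt*, a beta-globin gene of red blood cells, did not follow the labels. It was listed at 34838, 34268 and 48650 FPKM (fragments per kilobase of transcript, scaled to all aligned fragments of the library) in bone 3, osteoblasts 2 and osteoblasts 3, and at 7.05, 3.58 and 3.43 FPKM in bone 1, bone 2 and osteoblasts 1. The first 3 of these libraries, above 1000 FPKM, are called *Hbb-bt*-high here and the others *Hbb-bt*-low. These are not groups that the labels give, and no mean or test was taken over them. No library was moved to another label. Whether each library holds the sample its label names was not tested, so every label mean, SD and test below holds for the labels as deposited. Aligned depth, read from the ratio of coverage to FPKM, was from 2.035 to 3.39 Gb of bases, so that 3 pairs from a 1 kb transcript would give 0.133 to 0.221 FPKM, taken as the detection floor for counting error only. Features without a gene name took 71.5% of all FPKM in bone 2 and 65.0% in osteoblasts 1, against 27.4 to 30.7% in the other 4 libraries, and FPKM is relative to the reads on all features.

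Marker genes of other cell types parted along the same line, and none of the 10 marker lists had a gene whose bone and osteoblast libraries did not overlap. Over all 12112 genes with a mean of at least 1 FPKM, 38.4% were higher in every *Hbb-bt*-high library and 16.9% in every *Hbb-bt*-low one. Between the labels, 0.438% had all bone libraries above and 0.479% all osteoblast libraries above. The counts in each list are to be read beside these shares. All 7 named neutrophil markers of 8 were higher in each *Hbb-bt*-high library, with a summed level of 14246 to 17226 FPKM against 0.430 to 5.51 FPKM, and *Elane* was at 0 in the *Hbb-bt*-low libraries. All 5 named erythroid markers of 8 summed to between 35852 and 50353 FPKM against 3.53 to 7.29 FPKM. Muscle (4 of 7 named, with *Mb* and *Tnnt3* at 0 in the *Hbb-bt*-low libraries), cartilage (3 of 5 named, *Col9a1* at 0), endothelium (6 of 6) and dividing cells (4 of 5) were also higher in every *Hbb-bt*-high library. Their sums were 232 to 1068 against 0.0324 to 1.09 FPKM, 30.8 to 45.2 against 0.516 to 1.05 FPKM, 44.0 to 55.8 against 0.289 to 5.44 FPKM, and 118 to 142 against 13.3 to 30.0 FPKM. Osteoclast markers (7 of 7 named) summed to 449 to 502 FPKM against 47.1 to 263 FPKM, mostly from *Acp5* and *Ctsk*, with 3 genes higher throughout (*Acp5*, *Oscar* and *Ocstamp*). The others, *Ctsk* among them, overlapped. Of these, *Calcr* (1.57 and 0.799 FPKM) and *Atp6v0d2* (7.96 and 6.32 FPKM) were highest in bone 1 and osteoblasts 1, both *Hbb-bt*-low. Macrophage markers went the other way, with all 6 named genes of 7 higher in the *Hbb-bt*-low libraries and sums of 1397 to 2762 FPKM against 403 to 533 FPKM. Osteoblast markers (8 of 9 named) summed to 5263 to 8496 FPKM in the *Hbb-bt*-low and 5572 to 6604 FPKM in the *Hbb-bt*-high libraries, mostly from the collagen genes *Col1a1* and *Col1a2*. Of them, *Ibsp* (986 to 1278 against 43.1 to 91.3 FPKM) and *Alpl* (95.4 to 205 against 66.0 to 94.1 FPKM) were higher in every *Hbb-bt*-low library, and *Bglap2* in every *Hbb-bt*-high one (1641 to 1959 against 264 to 513 FPKM). Osteocyte markers (5 of 6 named) summed to 54.6 to 133 FPKM and 43.8 to 50.1 FPKM, and *Sost*, which marks mature osteocytes, was at 15.8 to 22.7 FPKM in the *Hbb-bt*-high libraries and did not exceed 0.198 FPKM in the *Hbb-bt*-low ones, while *Dmp1*, another osteocyte gene, went the other way, at 22.5 to 24.2 FPKM against 50.0 to 127 FPKM. What part these cells have in the levels below was not tested, and in whole tissue or culture, fewer cells of a type and less RNA per cell cannot be told apart.

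Of the 37 members, 23 reached 1 FPKM in at least 1 library, and 9 of these reached 10 FPKM. Another 10 were listed above 0 but stayed below 1 FPKM, and *Adamts19*, *Mmp1a*, *Mmp1b* and *Mmp7* were listed at 0 in all 6 libraries. Of those 10, *Mmp10*, *Mmp20*, *Adamts16* and *Adamts20* stayed under the detection floor in every library. The highest members by FPKM, a level per transcript length, were the inhibitors *Timp1*, *Timp2* and *Timp3* and the proteases *Mmp13* and *Mmp14*. Their order took 2 forms. In bone 1, bone 2 and osteoblasts 1 it was *Timp1*, *Timp2*, *Timp3*, *Mmp13*, *Mmp14* and *Adamts1*. In bone 3, osteoblasts 2 and osteoblasts 3 it began with *Timp2*, *Mmp13*, *Mmp14* and *Timp3*, and *Adamts10* stood above *Adamts1*.

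**Figure D1:**
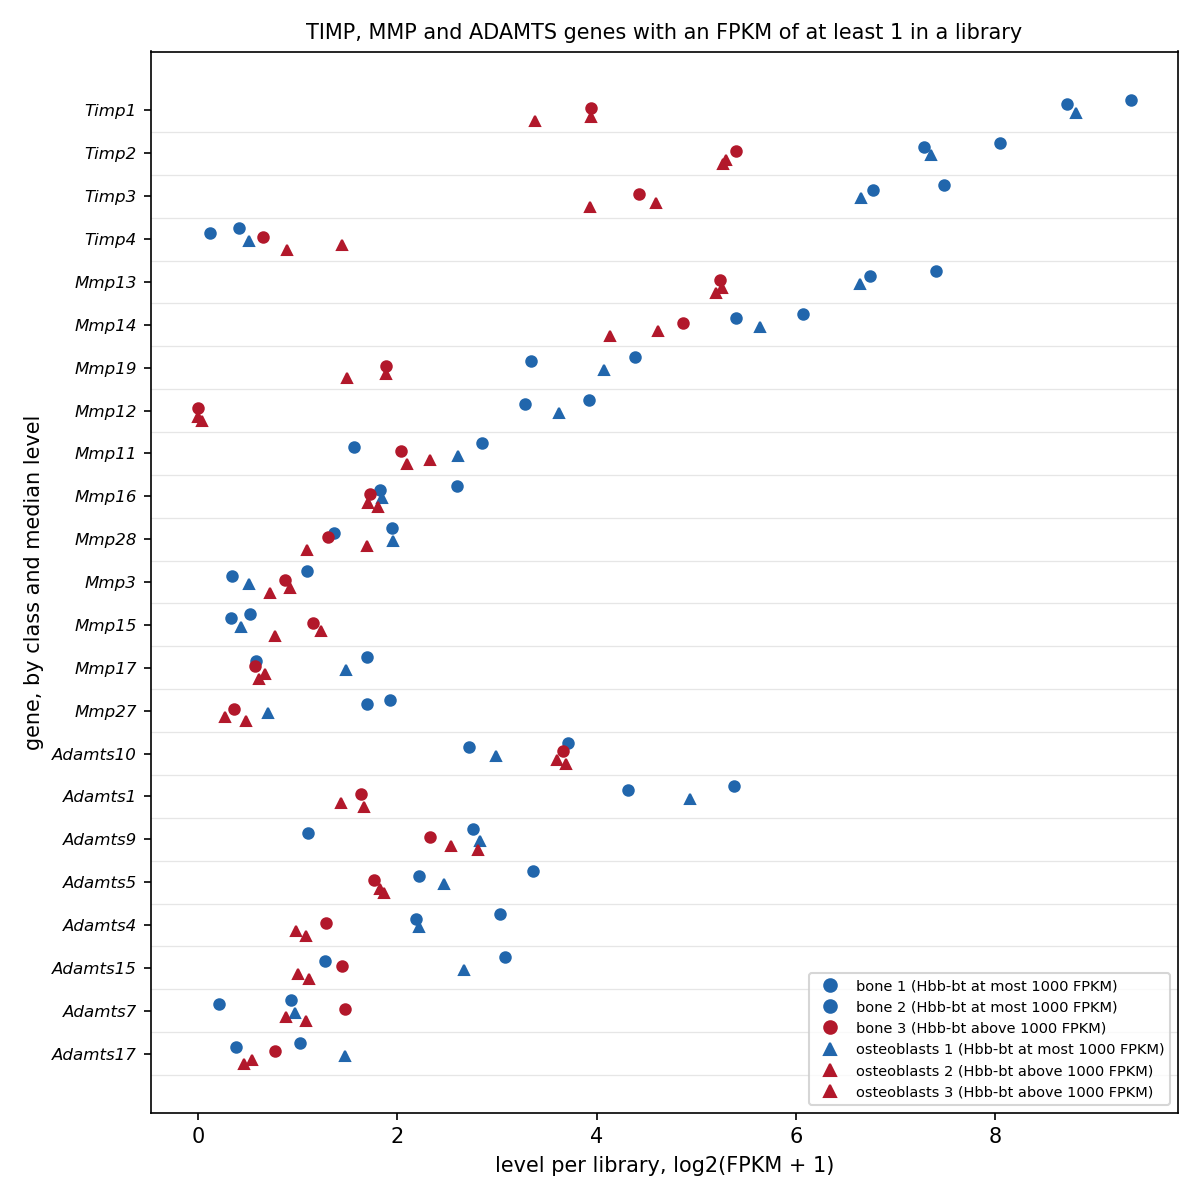
Level of each of the 23 members that reached 1 FPKM in a library, as log2(FPKM + 1), with genes in rows by class. Each point is 1 library, circles for the label bone and triangles for osteoblasts, red where *Hbb-bt* was above 1000 FPKM. Red and blue points are far apart for *Timp1*, *Mmp12* and *Adamts1* and mixed for *Adamts10* and *Mmp11*, while circles and triangles are mixed in every row.

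*Timp1*, a secreted inhibitor of most MMPs that is weak against the membrane-bound ones, varied most among the inhibitors. Its feature sits on the plus strand of Chr. X (20870166 to 20888315, positions as deposited on GRCm38). Its level was 656, 422 and 14.4 FPKM in bone 1, 2 and 3 and 447, 14.4 and 9.44 FPKM in osteoblasts 1, 2 and 3. The 3 *Hbb-bt*-low libraries were all above the 3 *Hbb-bt*-high ones, and the lowest of the former was 29.2 times the highest of the latter. Under both labels some libraries were high and others low, so that the labels overlapped, with 364 ± 324 FPKM (SD, n = 3) for bone and 157 ± 251 FPKM (SD, n = 3) for osteoblasts. Ranked among genes of at least 1 FPKM, *Timp1* was above 99.4 to 99.5% of them in the *Hbb-bt*-low libraries and above 62.2 to 74.6% in the others.

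*Timp2*, which besides blocking MMPs helps *Mmp14* to activate the gelatinase *Mmp2*, sits on the minus strand of Chr. 11 (118301069 to 118440804). It was at 264, 155 and 41.3 FPKM in bone 1, 2 and 3 and at 162, 38.2 and 37.5 FPKM in osteoblasts 1, 2 and 3. It parted the same libraries as *Timp1*, by a smaller gap, with the lowest *Hbb-bt*-low library at 3.75 times the highest of the others. *Timp3*, an inhibitor that stays bound to matrix and also blocks aggrecan-cleaving ADAMTS proteases, sits on the plus strand of Chr. 10 (86300372 to 86349506). Its level was 179, 108 and 20.5 FPKM in bone 1, 2 and 3 and 99.8, 23.1 and 14.3 FPKM in osteoblasts 1, 2 and 3. Again bone 3 lay with osteoblasts 2 and 3, and the gap was 4.31 times. *Timp4*, the remaining inhibitor, was low everywhere, between 0.0873 and 1.72 FPKM. Its highest 3 libraries were the *Hbb-bt*-high ones in FPKM, but the libraries overlapped once each was scaled to the sum of its named genes.

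*Mmp13*, collagenase 3, which cleaves the fibrillar collagens of bone and cartilage, was the highest protease among the 37 members in every library. It sits on the plus strand of Chr. 9 (7272514 to 7283331). Its level was 168, 106 and 36.7 FPKM in bone 1, 2 and 3 and 98.7, 37.4 and 35.8 FPKM in osteoblasts 1, 2 and 3. It made up 47.2 to 60.7% of the summed MMP level in all 6 libraries, a range in which the *Hbb-bt*-high and *Hbb-bt*-low libraries overlapped. *Mmp14*, a membrane-type collagenase also called MT1-MMP, followed it in each library and sits on the plus strand of Chr. 14 (54431612 to 54445364). It was at 66.0, 41.2 and 28.2 FPKM in bone 1, 2 and 3 and at 48.8, 23.5 and 16.5 FPKM in osteoblasts 1, 2 and 3. Its gap between *Hbb-bt*-low and *Hbb-bt*-high libraries was only 1.46 times, against 2.64 times for *Mmp13*.

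*Mmp12*, macrophage elastase, had the widest gap between libraries among the 37 members. It sits on the plus strand of Chr. 9 (7344381 to 7369499). Its level was 14.2 FPKM in bone 1, 8.74 FPKM in bone 2 and 11.3 FPKM in osteoblasts 1, and it was listed at 0 in bone 3 and osteoblasts 2 and at 0.0266 FPKM in osteoblasts 3, under the detection floor. Macrophage markers were higher in the same 3 libraries (*Adgre1* at 87.3 to 166 FPKM against 15.8 to 20.9 FPKM), though not near 0 in the others, and their part in the *Mmp12* level was not tested. *Mmp19*, a secreted MMP that cleaves basement membrane proteins, sits on the plus strand of Chr. 10 (128790910 to 128800824). It was at 19.8, 9.16 and 2.70 FPKM in bone 1, 2 and 3 and at 15.8, 2.71 and 1.82 FPKM in osteoblasts 1, 2 and 3. The lowest *Hbb-bt*-low library was 3.39 times the highest of the others. A feature without a gene name covers the same stretch on the same strand, and its levels are given with the overlaps below.

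*Mmp13* and *Mmp12* belong to a cluster on Chr. 9 in which 9 members lie within 427072 bp, in the order *Mmp13*, *Mmp12*, *Mmp1b*, *Mmp3*, *Mmp1a*, *Mmp10*, *Mmp27*, *Mmp20* and *Mmp7*. Neighbours in it differed widely in level within a library. *Mmp13* was at 35.8 to 168 FPKM, *Mmp3* (stromelysin 1) was at 0.267 to 1.13 FPKM, and *Mmp27* was at 0.209 to 2.81 FPKM. *Mmp10* (stromelysin 2) and *Mmp20*, the enamel protease, did not exceed 0.0651 and 0.0455 FPKM, and *Mmp1a*, *Mmp1b* and *Mmp7* (matrilysin) were at 0. *Mmp3* did not share the pattern of *Mmp13* and *Mmp12*, since its *Hbb-bt*-low libraries held both its highest value (bone 1) and its lowest (bone 2). *Mmp27* was higher in each *Hbb-bt*-low library, at 2.81, 2.25 and 0.628 FPKM in bone 1, bone 2 and osteoblasts 1 against at most 0.399 FPKM.

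**Figure D2:**
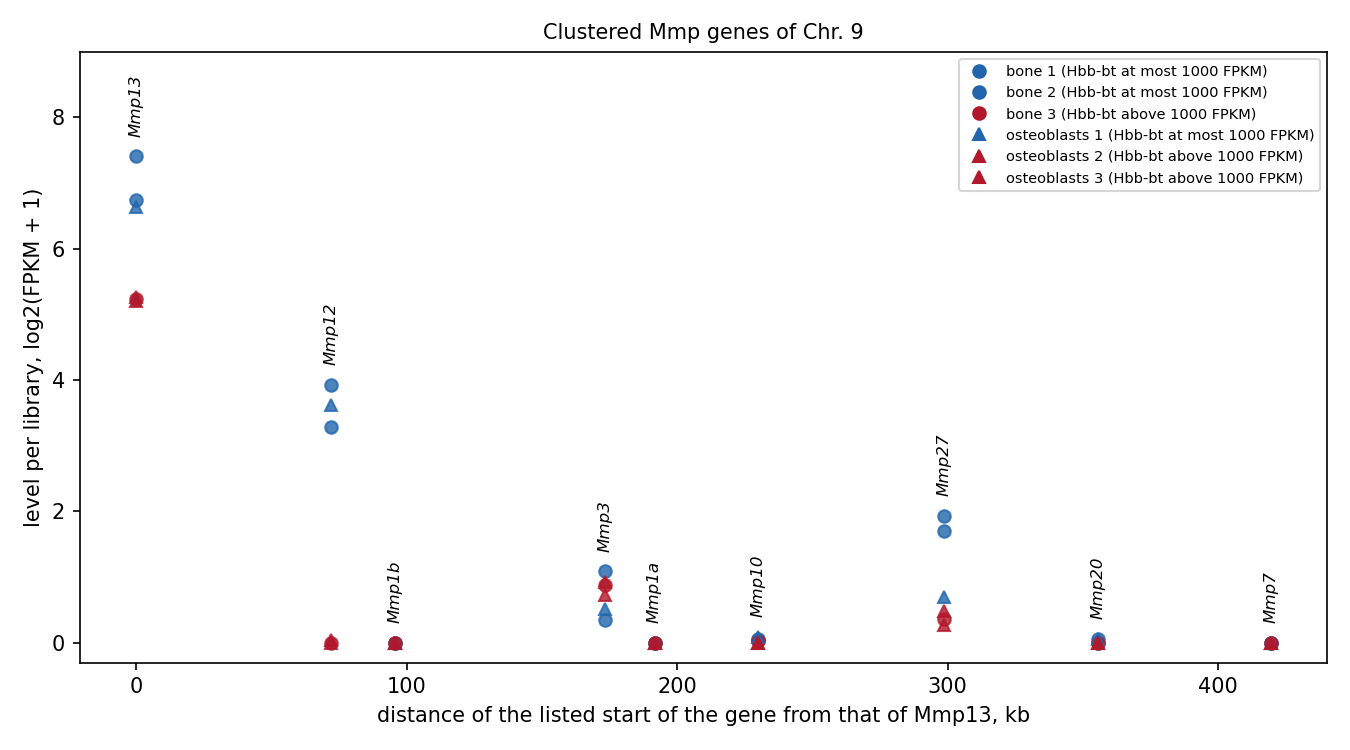
Level of the 9 clustered *Mmp* genes of Chr. 9, as log2(FPKM + 1), against the distance in kb of each listed start from that of *Mmp13*. Each point is 1 library, circles for the label bone and triangles for osteoblasts, red where *Hbb-bt* was above 1000 FPKM. *Mmp13* was expressed in all 6 libraries and *Mmp12* in the 3 blue ones, while *Mmp1b*, *Mmp1a* and *Mmp7* lie at 0 throughout.

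The starts of most cluster genes share a short word, at high and low levels of expression alike. Promoter windows from RefSeq (GRCm38.p6) were found for 25 of the 37 members, and the 250 bases before each of their 27 annotated starts were searched on both strands for the AP-1 word TGAGTCA or its reverse complement TGACTCA, the letters bound by Fos and Jun factors. It was present in 7 members, all of them in the cluster, and in 4.46% of the 32851 mouse windows. The stretches of 27 bases around it are shown because they set genes that were high, low and at 0 side by side. They are reference sequence and not read from these mice, run 5′ to 3′ on the strand of the gene, and carry the AP-1 word in capitals.
*Mmp13* (chr9:7272469-7272495, plus strand): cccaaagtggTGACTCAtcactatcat
*Mmp12* (chr9:7347320-7347346, plus strand): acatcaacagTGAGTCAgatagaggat
*Mmp1b* (chr9:7388103-7388129, minus strand): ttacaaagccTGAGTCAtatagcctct
*Mmp3* (chr9:7445766-7445792, plus strand): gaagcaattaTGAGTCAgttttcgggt
*Mmp1a* (chr9:7464058-7464084, plus strand): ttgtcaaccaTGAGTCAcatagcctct
*Mmp10* (chr9:7502269-7502295, plus strand): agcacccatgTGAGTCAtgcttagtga
*Mmp7* (chr9:7692017-7692043, plus strand): agtgtgcaaaTGAGTCAcctatttcca
Counted from the annotated start to the first letter, the word lay at -35 in *Mmp13*, -44 in *Mmp12*, -93 in *Mmp1b*, -46 in *Mmp3*, -73 in *Mmp1a*, and -63 in both *Mmp10* and *Mmp7*. The *Mmp12* position is relative to an annotated start within its listed feature. *Mmp13*, at 35.8 to 168 FPKM, and *Mmp1a*, *Mmp1b* and *Mmp7*, listed at 0, thus all held it. The related word TGAGTAA or TTACTCA was in no member and in 2.25% of all windows.

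The whole 250 bases before the start of *Mmp13* are given as those of the highest protease among the members, with the RUNX word AACCACA, the AP-1 word and the TATA box word TATAAA in capitals.
*Mmp13* (chr9:7272264-7272513, plus strand): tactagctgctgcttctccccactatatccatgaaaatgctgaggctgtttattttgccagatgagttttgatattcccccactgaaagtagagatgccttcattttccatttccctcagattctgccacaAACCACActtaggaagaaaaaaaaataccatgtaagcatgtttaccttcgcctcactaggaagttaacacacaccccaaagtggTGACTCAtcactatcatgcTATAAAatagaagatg
The RUNX word, AACCACA or its reverse complement TGTGGTT, is recognised by *Runx2*, the master factor of osteoblasts, and lay at -119 here. It was also found in *Mmp27* and *Mmp7*, and in 4.40% of all windows. The word TATAAA, searched on the strand of the gene only, lay at -16 here, was found in 9 members and was present in 7.59% of all windows. These 3 words do not overlap in *Mmp13*. None of them was in the same stretch before *Timp1*, shown as the member with the widest range in FPKM.
*Timp1* (chrX:20869916-20870165, plus strand): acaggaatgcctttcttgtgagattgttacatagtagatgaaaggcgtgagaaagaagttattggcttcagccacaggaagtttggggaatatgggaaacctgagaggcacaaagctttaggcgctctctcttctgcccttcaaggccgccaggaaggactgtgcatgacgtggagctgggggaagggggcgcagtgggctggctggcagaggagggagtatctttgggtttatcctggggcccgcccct
A match or its absence describes these letters and not the binding of a factor.

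The remaining MMPs were low. *Mmp11* (stromelysin 3) was at 1.96 to 6.21 FPKM, *Mmp16* (the membrane-type MT3-MMP) at 2.25 to 5.06 FPKM, and *Mmp28* (epilysin) at 1.13 to 2.87 FPKM. The membrane-type *Mmp17* was at 0.482 to 2.24 FPKM and *Mmp15* at 0.258 to 1.35 FPKM. *Mmp16* was higher in each *Hbb-bt*-low library by a gap of only 1.02 times, which was lost in TPM. *Mmp11*, *Mmp17* and *Mmp28* overlapped, with bone 1 and osteoblasts 1 highest in each of the 3 and bone 2 lower. *Mmp21* and *Mmp24* were detected and did not exceed 0.261 and 0.333 FPKM.

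*Adamts1*, which cleaves versican and aggrecan, was the highest ADAMTS gene in the *Hbb-bt*-low libraries. It sits on the minus strand of Chr. 16 (85793827 to 85803113). Its level was 40.5, 18.9 and 2.11 FPKM in bone 1, 2 and 3 and 29.5, 1.70 and 2.16 FPKM in osteoblasts 1, 2 and 3. The lowest *Hbb-bt*-low library was 8.73 times the highest of the others, the widest gap of a member with an FPKM above 1 in all libraries after *Timp1*. *Adamts10*, a protease associated with fibrillin microfibrils, sits on the plus strand of Chr. 17 (33524204 to 33553782) and did not share it. It was at 12.1, 5.58 and 11.7 FPKM in bone 1, 2 and 3 and at 6.95, 11.1 and 12.0 FPKM in osteoblasts 1, 2 and 3. Its lowest values were in bone 2 and osteoblasts 1, the libraries with most FPKM on unnamed features, and with each library scaled to the same sum over named genes (in parts per 1000000) they became 15.7 and 17.8, above the 12.9 to 14.5 of the *Hbb-bt*-high libraries.

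Within a library the pair gives a ratio that no scaling can change. *Adamts1* was 3.35, 3.38 and 4.25 times *Adamts10* in FPKM in bone 1, bone 2 and osteoblasts 1, and 0.181, 0.152 and 0.181 times in bone 3, osteoblasts 2 and osteoblasts 3. *Adamts1* made up 47.85 to 53.9% of the summed ADAMTS level in the former and 6.83 to 7.75% in the latter, while the share of *Adamts10* was 11.7 to 15.9% and 42.7 to 44.8%. The leading ADAMTS gene was thus *Adamts1* in bone 1, bone 2 and osteoblasts 1 and *Adamts10* in the others.

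The aggrecanases *Adamts4* and *Adamts5* were moderate, at 0.980 to 7.19 FPKM and 2.41 to 9.24 FPKM, and both were higher in each *Hbb-bt*-low library. *Adamts5* lies 55056 bp from *Adamts1* on Chr. 16, and the gap between its libraries was 1.38 times against 8.73 times for its neighbour. *Adamts15*, a versican-cleaving protease, was at 1.01 to 7.44 FPKM, with bone 1 and osteoblasts 1 above the other 4 libraries. *Adamts8*, which lies 20109 bp from *Adamts15* on Chr. 9, did not exceed 0.620 FPKM. *Adamts9*, which also cleaves versican, was at 1.15 to 6.12 FPKM and had its lowest value in bone 2. *Adamts7*, a protease of cartilage oligomeric matrix protein, was at 0.158 to 1.77 FPKM and *Adamts17* at 0.304 to 1.78 FPKM, and the libraries overlapped for both. *Adamts13*, which cleaves von Willebrand factor and is made mainly in liver, was listed above 0 in osteoblasts 2 and 3 only, at 0.622 and 0.0320 FPKM. *Adamts6* was at 0.333 to 0.685 FPKM, and *Adamts16*, *Adamts18* and *Adamts20* did not exceed 0.0650, 0.508 and 0.0553 FPKM.

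Summed over its members, each class was higher in the 3 *Hbb-bt*-low libraries, and the TIMPs most. The TIMP sum was 1098, 684 and 76.7 FPKM in bone 1, 2 and 3 and 709, 77.5 and 62.1 FPKM in osteoblasts 1, 2 and 3. The MMP sum was 289, 175 and 77.7 FPKM in bone and 189, 75.7 and 63.8 FPKM in osteoblasts, in the same order. The ADAMTS sum was 84.6, 35.0 and 27.3 FPKM in bone and 59.3, 24.9 and 27.9 FPKM in osteoblasts. By label the sums overlapped, with 620 ± 514 FPKM (SD, n = 3) of TIMPs in bone and 283 ± 369 FPKM (SD, n = 3) in osteoblasts. For MMPs the means were 180 ± 106 FPKM and 109 ± 69.0 FPKM, and for ADAMTS genes 49.0 ± 31.1 FPKM and 37.4 ± 19.0 FPKM (SD, n = 3 each).

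Over the named members, the inhibitors outweighed the MMPs in bone 1, bone 2 and osteoblasts 1 and came level with them in the other libraries. The ratio of the TIMP sum to the MMP sum was 3.80, 3.92 and 0.987 in bone 1, 2 and 3 and 3.76, 1.02 and 0.973 in osteoblasts 1, 2 and 3. *Timp1* made up 59.7 to 63.0% of the TIMP sum in the *Hbb-bt*-low libraries and 15.2 to 18.8% in the *Hbb-bt*-high ones. It was 2.49 to 2.75 times *Timp2* in the former and 0.252 to 0.378 times in the latter. With the highest gene of each class taken out in each library, the TIMP to MMP ratio was still 2.91 to 3.83 in the *Hbb-bt*-low libraries and 0.864 to 1.03 in the others. The level of this ratio depends on which MMPs are summed. With the features without a gene name at *Mmp2*, *Mmp23* and *Mmp25* added to the MMPs, it was 2.27 to 2.35 in the *Hbb-bt*-low libraries and 0.485 to 0.559 in the others. The ratio of the ADAMTS sum to the MMP sum did not part them as widely, at 0.201 to 0.314 and 0.329 to 0.438.

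**Figure D3:**
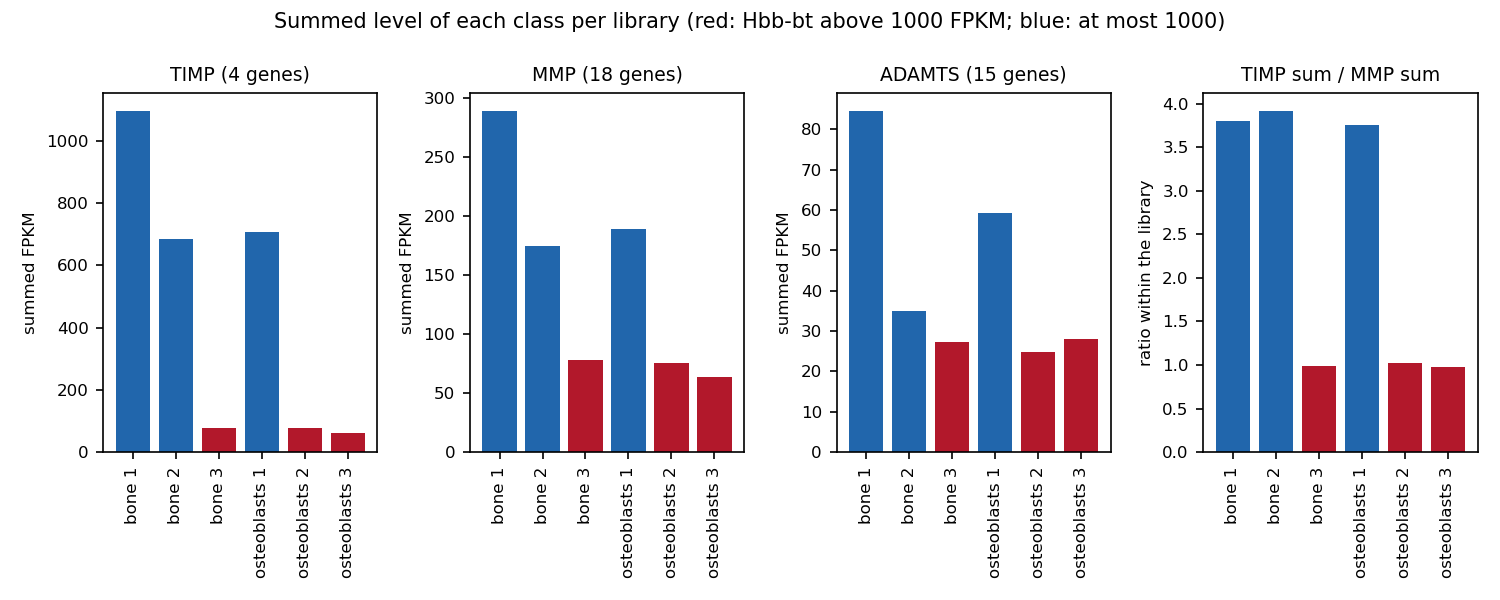
Summed FPKM of the 4 TIMPs, 18 MMPs and 15 ADAMTS genes, and the ratio of the TIMP sum to the MMP sum, as a bar for each library with axes from 0. Red bars are libraries with *Hbb-bt* above 1000 FPKM. The TIMP sum was 684 to 1098 FPKM in the blue and 62.1 to 77.5 FPKM in the red bars, and the ratio was 3.76 to 3.92 against 0.973 to 1.02.

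The number of members that parted the libraries was then set beside the same count over all genes. Between the labels, 0 of 37 members had bone and osteoblast libraries that did not overlap, where 0.438% of the 12112 genes with a mean of at least 1 FPKM had all bone libraries above and 0.479% all osteoblast libraries above. With libraries split at 1000 FPKM of *Hbb-bt*, the *Hbb-bt*-low libraries were all higher for 12 of the 18 members at that mean, against 16.9% of all genes. These were *Timp1*, *Timp2*, *Timp3*, *Mmp12*, *Mmp13*, *Mmp14*, *Mmp16*, *Mmp19*, *Mmp27*, *Adamts1*, *Adamts4* and *Adamts5*. Of these, *Mmp12* and *Mmp27* reach that mean only through the *Hbb-bt*-low libraries, so the count is not support for a difference. The *Hbb-bt*-high libraries were all higher for 0 of the 18, against 38.4% of all genes. Without the limit on the mean, over the 33 members listed above 0 in a library, the *Hbb-bt*-low libraries were all higher for 13, against 9.32% of 27562 genes. The *Hbb-bt*-high libraries were all higher for 7, against 32.4% of those genes, all 7 of low level (*Adamts8*, *Adamts18*, *Adamts20*, *Mmp15*, *Mmp21*, *Mmp24* and *Timp4*). The member that made the 12 into 13 was *Mmp10*, which did not exceed 0.0651 FPKM. *Adamts20*, among the 7, did not exceed 0.0553 FPKM. Both lie under the detection floor in every library, so their order between libraries carries no weight.

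How each library was scaled changed these counts and their background together. With named genes set to sum to 1000000 in each library, 17 of the 18 members were all higher in the *Hbb-bt*-low libraries, every one but *Adamts9*, and so were 48.6% of all genes, with 0 members and 21.4% of genes the other way. *Timp1* then came to 1102, 1184 and 1145 parts in bone 1, bone 2 and osteoblasts 1 and to 16.5, 16.8 and 11.5 in bone 3, osteoblasts 2 and osteoblasts 3. *Mmp13* came to 283, 298 and 253 and to 41.9, 43.4 and 43.5. On this scale the 3 *Hbb-bt*-low libraries lay closer together than in FPKM for both genes, and the 12 members named above were all still higher in them.

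To ask whether bone and osteoblasts differed as labelled, the libraries were compared under their deposited labels with limma on log2(FPKM + 1) over the 12112 genes, 18 of them members. At an adjusted p below 0.05, 0 members were higher and 0 lower in osteoblasts, and 0% of all genes were called in either direction. At an unadjusted p below 0.05 there were 17 genes and 0 members. *Timp1* had the largest difference, with osteoblasts below bone on the log2 scale (-1.96, SE 1.68, adjusted p = 0.999 from limma). The SE was nearly as large as the difference or larger, and the same held for the next members, *Mmp12* (-1.18, SE 1.20), *Timp3* (-1.17, SE 0.94) and *Adamts1* (-1.10, SE 1.13). *Timp2* differed by -0.94 (SE 0.84), *Mmp13* by -0.76 (SE 0.70), *Adamts4* by -0.73 (SE 0.57), *Mmp19* by -0.72 (SE 0.81) and *Mmp14* by -0.65 (SE 0.57). *Mmp27*, at -0.84 (SE 0.52), had the lowest p of the 18 members (unadjusted p = 0.142, adjusted p = 0.999 from limma). With each library left out in turn, *Timp1* ran from -3.68 to -0.96, *Timp2* from -1.69 to -0.37, *Mmp13* from -1.37 to -0.29 and *Mmp19* from -1.51 to -0.13. *Adamts10* was near 0 (0.07, SE 0.47), and *Adamts9* had the largest positive difference (0.66, SE 0.50).

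The 18 members had a median difference of -0.68 against 0.12 over all genes tested, with 14 negative and 4 positive. Scaled to named genes the medians were -0.88 and -0.03. The median of the members was -0.21 without bone 1 (10 negative and 8 positive), -0.45 without osteoblasts 2, -0.31 without osteoblasts 3, -1.06 without bone 3 and -1.01 without osteoblasts 1, and -0.65 without bone 2. Leaving out bone 3 or osteoblasts 1 made the median more negative, and leaving out any other library made it less negative, bone 1 most. Bone 3 and osteoblasts 1 each lay with the libraries of the other label for most members. The part of that in these values was not tested. Without osteoblasts 1, *Timp1* (-3.68, adjusted p = 0.0213 from limma) and *Mmp12* (-2.38, adjusted p = 0.0461 from limma) were called lower in osteoblasts, among 262 genes called higher and 38 called lower. Without bone 3 the differences were of like size, -3.66 for *Timp1* (adjusted p = 0.0679 from limma) and -2.39 for *Mmp12* (adjusted p = 0.11 from limma), and 66 genes were called higher and 11 lower, 0 of them members.

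**Figure D4:**
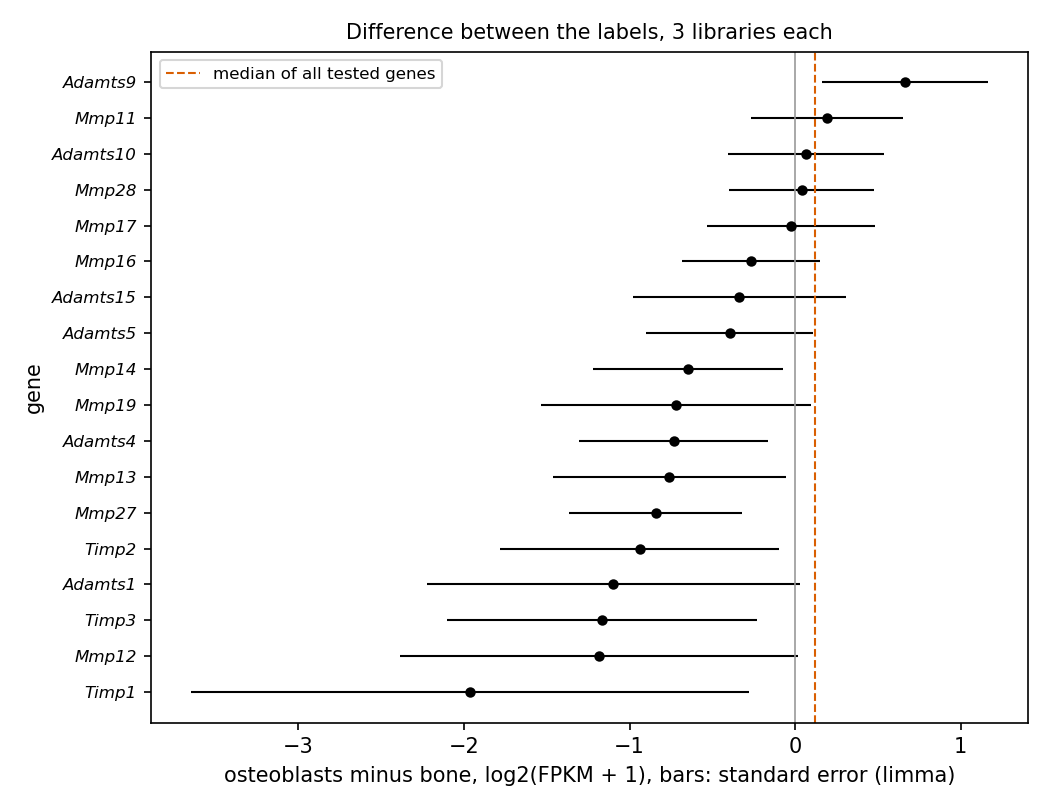
Difference between the labels, osteoblasts minus bone, in log2(FPKM + 1) for the 18 members tested, with 3 libraries per label. Points are limma estimates, bars are 1 standard error, and the dashed line is the median of all genes tested (0.12). *Timp1* lies furthest to the left at -1.96 and *Adamts9* furthest to the right at 0.66, and 0 of the 18 passed the threshold.

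Other genes of the pathway were taken from 4 lists, of activators and surface regulators, ADAMTS-like proteins, membrane ADAM proteases and matrix substrates. Of their 39 genes 37 were named and 30 tested, and 0 were called higher or lower between the labels by limma. Among the activators and regulators (12 of 13 named), the *Hbb-bt*-low libraries were all higher for 2 and the *Hbb-bt*-high ones for 4, where the shares over all genes were 16.9% and 38.4% with the limit on the mean and 9.32% and 32.4% without it. The counts of the lists that follow are over their named genes at any level and have the same background. *Serpine2*, a secreted inhibitor of serine proteases, was at 46.9 to 139 FPKM, and *Bsg*, which codes for the MMP inducer basigin, at 114 to 303 FPKM. Plasminogen itself, *Plg*, was listed at 0 in all 6 libraries.

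The membrane ADAM proteases (9 of 9 named) counted 4 that were higher in every *Hbb-bt*-low library and 1 the other way. *Adam8*, an ADAM of macrophages and other leukocytes, was at 213, 117 and 25.1 FPKM in bone 1, 2 and 3 and at 178, 27.8 and 31.5 FPKM in osteoblasts 1, 2 and 3. *Adam15* was at 55.4 to 119 FPKM in the *Hbb-bt*-low libraries and at 16.3 to 17.3 FPKM in the others, and *Adam9* at 31.9 to 52.8 FPKM and 3.05 to 4.44 FPKM. For ADAMTS-like proteins, which lack the protease domain, 3 of the 6 named genes of 7 were higher in each set of libraries.

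The substrates (10 of 10 named) were divided, with 5 higher in every *Hbb-bt*-low library and 4 in every *Hbb-bt*-high one. *Acan* (aggrecan), the cartilage proteoglycan cut by *Adamts4* and *Adamts5*, was at 0.457, 0.107 and 87.0 FPKM in bone 1, 2 and 3 and at 0.145, 58.0 and 44.7 FPKM in osteoblasts 1, 2 and 3. Both aggrecanases were lower in the libraries in which this substrate was high. *Comp*, cut by *Adamts7*, was at 108 to 189 FPKM in the *Hbb-bt*-high libraries and at 8.63 to 27.1 FPKM in the others, and *Vwf*, cut by *Adamts13*, at 41.8 to 63.2 FPKM and at 0.158 to 0.420 FPKM. Cartilage and endothelial markers moved in the same direction, as given above, and their part was not tested. *Thbs1* (thrombospondin 1) was at 631 to 1067 FPKM in the *Hbb-bt*-low libraries and 77.4 to 90.2 FPKM in the others. *Fn1* (fibronectin) was at 335 to 753 FPKM and 117 to 188 FPKM, while *Hspg2* (perlecan) overlapped, at 17.8 to 58.5 FPKM.

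Some listed features share their place with others, and the library kit does not mark strand. Of the 37 members, 18 overlap a named feature on the other strand and 11 overlap no other feature. The genes *Timp1*, *Timp3* and *Timp4* lie inside the synapsin genes *Syn1*, *Syn3* and *Syn2* on the other strand, which did not exceed 0.759, 0.470 and 0.266 FPKM. The feature listed as *Timp1* covers 18150 bp where the RefSeq gene covers 4572 bp, and that of *Timp2* covers 139736 bp where the RefSeq gene covers 54351 bp. *Timp2* thereby spans *Lgals3bp* on the same strand, at 36.5 to 112 FPKM. *Mmp19* lies whole within *AC131081.1* on the other strand, at 1.44 to 5.46 FPKM, and *Mmp11* overlaps *Chchd10* (1.06 to 53.9 FPKM). A feature without a gene name also covers the whole of *Mmp19* on the same strand. It was at 8.20, 2.64 and 12.7 FPKM in bone 1, 2 and 3. In osteoblasts 1, 2 and 3 it was at 5.93, 13.3 and 12.4 FPKM. It was thus above *Mmp19* in each *Hbb-bt*-high library and below it in each *Hbb-bt*-low one. Another such feature covers *Mmp27* on the other strand, at 0.446 to 1.38 FPKM. How reads were divided among such features was not tested, and the levels of these members carry that limit.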

How the data were processed

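RNA-seq was made from bone and from osteoblasts of CC016/GeniUnc mice, with 3 libraries per label. By the study's methods and processing notes, the authors prepared TruSeq libraries, aligned reads of 75 bp in pairs to GRCm38 with HISAT2 2.0.5, handled alignments with SAMtools 1.7 and estimated expression with StringTie 1.3.3. The annotation release is not given in the sources used here. The authors deposited FPKM, TPM and coverage (a signal per base) for each feature of each library, without read counts. FPKM are scaled to all aligned reads, unnamed features included, and the deposited TPM hold the same levels scaled to a fixed sum per library. Each of the features with a gene name was kept and those with the same name were summed.

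The members, gene lists and tests were chosen with earlier results of these data known. Groups came from the labels. Members with an FPKM of at least 10 in a library are given in full, those that reached 1 by their range and the rest by count, and pathway genes are named from 50 FPKM. *Mmp27*, *Mmp10*, *Mmp20*, *Plg* and the other lower genes with values were named after these were seen. As FPKM are not counts, genes whose FPKM averaged at least 1 were compared on log2(FPKM + 1) with limma 3.58.1 in R 4.3.3 (lmFit, eBayes with a trend, Benjamini-Hochberg adjustment, threshold 0.05), and the fold changes understate those of low genes. The limma step was tested on simulated data. Depth was computed from coverage divided by FPKM, at its commonest value over features covered more than 1 time, and the floor of 3 pairs covers counting error only. 0 pairs of libraries held identical values. Promoter windows, positions and gene types were from RefSeq on GRCm38.p6, and all 37 members matched by name. Alternatives were other pseudocounts (0.1 and 0.01), filters and scalings, TPM, limma without a trend, a replicate block and leaving out each library. Scaling of the class sums to named genes, adding unnamed features to them, and leaving out bone 2 or osteoblasts 1 from the counts of libraries that do not overlap, were chosen after seeing the data. Python 3.11.15, pandas 2.3.3, numpy 2.4.6 and matplotlib 3.10.9 were used. Some genes of the lists are not reported here by name.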

Additional observations from a re-analysis of the deposited data

Results flagged for a closer look

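Signal was found at 4 genes of the family that the name rule could not reach, because the feature at their RefSeq position carries no gene name in the tables. Each was above the level that 3 read pairs allow in at least 1 library, and none enters the counts of the report. The feature at *Mmp2* (Chr. 8, 92826099 to 92853420), the gelatinase that *Mmp14* activates, was at 128, 92.7 and 60.2 FPKM in bone 1, 2 and 3 and at 91.7, 44.1 and 40.6 FPKM in osteoblasts 1, 2 and 3. It was below *Mmp13* in bone 1, bone 2 and osteoblasts 1 and above it in the other libraries. The feature at *Mmp23* (Chr. 4, 155649985 to 155653384) was at 50.1, 32.4 and 5.38 FPKM in bone and at 32.0, 7.85 and 4.34 FPKM in osteoblasts, in the same order. The feature at *Adamts12* (Chr. 15, 11064384 to 11349301) was at 9.52, 3.59 and 1.70 FPKM in bone and at 4.84, 0.756 and 0.933 FPKM in osteoblasts. The feature at *Mmp25* (Chr. 17, 23628241 to 23645269), a membrane-type MMP of leukocytes, went the other way. It was at 0, 0 and 14.9 FPKM in bone and at 0.0235, 11.1 and 15.7 FPKM in osteoblasts, and it also spans *Gm7773* and *Bicdl2*. Neutrophil markers were high in the same 3 libraries, as given in the report, and their part was not tested.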

How the results depend on the processing

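For the 9 members with an FPKM of at least 10, the difference between the labels kept its direction and its side of the threshold in 78 of 81 comparisons under 9 other settings, and the other 3 were *Adamts10*, which turned to -0.0071 in TPM, -0.11 when scaled to named genes and -0.024 when scaled to the 75th percentile. The other filters, limma without a trend and the replicate block leave the difference itself unchanged. In those settings only the side of the threshold could change, so their share of the 78 says nothing about direction. Leaving out each library in turn gave -0.26 to 0.28 for *Adamts10*. Members called lower ranged from 0 to 2, all genes called higher from 0 to 262 and lower from 0 to 38, pathway genes called higher from 0 to 2 and lower from 0 to 1, and members with all bone libraries above all osteoblast libraries from 0 to 4, against 5.57% of all genes. The upper ends came without osteoblasts 1, when *Acan* (3.32, adjusted p = 0.037 from limma) and *Vwf* (3.34, adjusted p = 0.0301) were called higher. Over all settings the adjusted p ranged from 0.0213 to 1 for *Timp1* and from 0.0461 to 1 for *Mmp12*. With the replicate number as a block, 46 genes were called higher and 3 lower, 0 of them members. The numbers were not taken as pairs, because no label says that a number marks a mouse. Deviations of same-numbered libraries from their label means correlated by 0.84, -0.75 and 0.83 over the 12112 genes. Those of bone 2 with osteoblasts 1 and of bone 3 with osteoblasts 2 correlated by 0.80 and 0.83. Each sign followed the *Hbb-bt* level of the libraries, so these values cannot decide pairing. The count of members with all *Hbb-bt*-high libraries above the others, 0, became 1 (*Adamts10*) when scaled to the 75th percentile and 7 without a filter, against 37.1% and 32.4% of all genes, and the opposite count of 12 ranged from 11 to 17 while the share of all genes ranged from 9.32 to 48.6%. Scaled to named genes, the mean sums in bone and osteoblasts were 1285 and 661 for TIMPs, 355 and 216 for MMPs, and 90.6 and 71.6 for ADAMTS genes. With the features without a gene name at family genes added, an alternative chosen after seeing the data, the MMP sums were 309 and 192 FPKM, and the mean log2 ratio of TIMPs to MMPs fell from 1.29 to 0.46 in bone and from 0.63 to -0.22 in osteoblasts. Where not said, the cause was not tested. Depth limits members below about 0.221 FPKM, and without read counts no interval can be given for a level.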
